A study of Mus musculus with 8 samples.

Results

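The genes described here are those of the main noncollagenous parts of the basement membrane: the laminin chains *Lama2*, *Lama4*, *Lama5*, *Lamb1*, *Lamb2* and *Lamc1*, the nidogens *Nid1* and *Nid2*, and the heparan sulfate proteoglycans perlecan (*Hspg2*) and agrin (*Agrn*). They were taken by gene symbol and not by a rule on their measured values, although earlier results of these data were known when they were chosen. All 10 were found among the 54658 gene symbols of the count table. RNA-Seq was performed on primary articular chondrocytes of 3-week-old wild-type mice, released from the cartilage of the femoral heads by collagenase and kept in culture. In one group of 4 samples the cells received IL-1β, a proinflammatory cytokine, at 1 ng/mL for 24 h. In the other 4 samples they received vehicle for the same time, and no sample carried a genetic change. The comparison asks how the transcripts of chondrocytes respond to the cytokine. The labels do not say whether the samples came from separate animals, so the p-values measure the spread between these samples, which may be technical.

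A laminin is a trimer of an α, a β and a γ chain, joined by a coiled coil. Many laminins, but not all, are cross-shaped molecules that polymerize into sheets at the cell surface. The α chain carries the globular domains to which integrins and dystroglycan bind, and *Lamc1* encodes the γ chain of most laminins. Nidogens link laminin to the collagen IV network, and perlecan and agrin bring heparan sulfate chains that hold growth factors. Chondrocytes have no true basement membrane, but perlecan, laminins and nidogens are known from the pericellular matrix that surrounds each cell in cartilage.

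The total was 10992355 to 17104351 counts per sample with IL-1β and 13970959 to 17456063 with vehicle, and 3 counts correspond to 0.172 to 0.273 counts-per-million (CPM), depending on the sample. Abundances are CPM scaled with edgeR's TMM factors, which correct for differences in composition between libraries. No 2 samples of a group were alike within counting error (chi-square over degrees of freedom of 1.98 to 6.34, where counting error alone gives 1). As for the cell type, all 8 chondrocyte markers were expressed, with a summed abundance of 14286 to 14841 CPM with vehicle and 3588 to 3958 CPM after IL-1β, and all 8 fell. Cells that make or lie on basement membranes were nearly absent by their markers. The 5 endothelial markers summed to 0.753 to 1.00 CPM with vehicle and 0.651 to 1.25 CPM after IL-1β, and *Cdh5* and *Emcn* had at most 3 counts in every sample. The 6 markers of pericytes and smooth muscle summed to 3.41 to 4.36 and 2.03 to 3.69 CPM, with *Kcnj8* and *Abcc9* at that limit. The 4 Schwann cell markers summed to 2.32 to 3.01 and 2.21 to 3.26 CPM, with *Foxd3* at the limit. The 5 skeletal muscle markers reached 0.791 to 1.07 and 0.271 to 0.715 CPM, with *Myod1*, *Myf5*, *Myog* and *Ckm* at the limit. The 6 macrophage and other haematopoietic markers summed to 10.2 to 11.3 CPM with vehicle and 14.6 to 18.2 CPM after IL-1β, mostly *Cd68*, the only one of them to pass the filter on low counts, while *Adgre1* and *Tyrobp* were at the limit. The 4 osteoblast markers summed to 79.4 to 90.1 CPM with vehicle and 28.9 to 35.5 CPM after IL-1β, with *Dmp1* at the limit. The other 3 passed the filter on low counts, and all 3 fell. *Sp7*, the most abundant, went from 56.5 ± 3.59 to 20.9 ± 2.92 CPM (SD, n = 4). The log2 fold changes were -1.42 for *Sp7*, -1.62 for *Bglap* and -1.10 for *Bglap2*. The part of these other cells in the results below was not tested.

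Of the 10 genes, 9 passed the filter on low counts, a CPM above 1 in at least 4 samples, and *Lama2* did not. A gene was called changed at a Benjamini-Hochberg adjusted p-value under 0.05 in edgeR's quasi-likelihood test over all 14404 genes tested, and a log2 fold change beyond 1 in either direction in addition made it a DEG, a differentially expressed gene. Among the 9 genes, 5 were called lower after IL-1β (*Nid2*, *Lama4*, *Lama5*, *Lamb2* and *Agrn*) and 2 higher (*Nid1* and *Lamb1*), while *Lamc1* and *Hspg2* were not called. Over all genes tested, 19.8% were called lower and 20.4% higher. *Nid2* was the only DEG, against a background of 2.35% of genes that were DEGs in the downward and 2.86% in the upward direction. The median log2 fold change of the 9 genes was -0.11, and that of all genes tested was -0.0012. These transcripts are long, and the median of the 5516 tested genes with a listed length of at least 5000 bases was -0.00016. In bulk samples, a lower abundance through fewer cells that express a gene and one through less RNA per cell cannot be told apart.

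**Figure D1:**
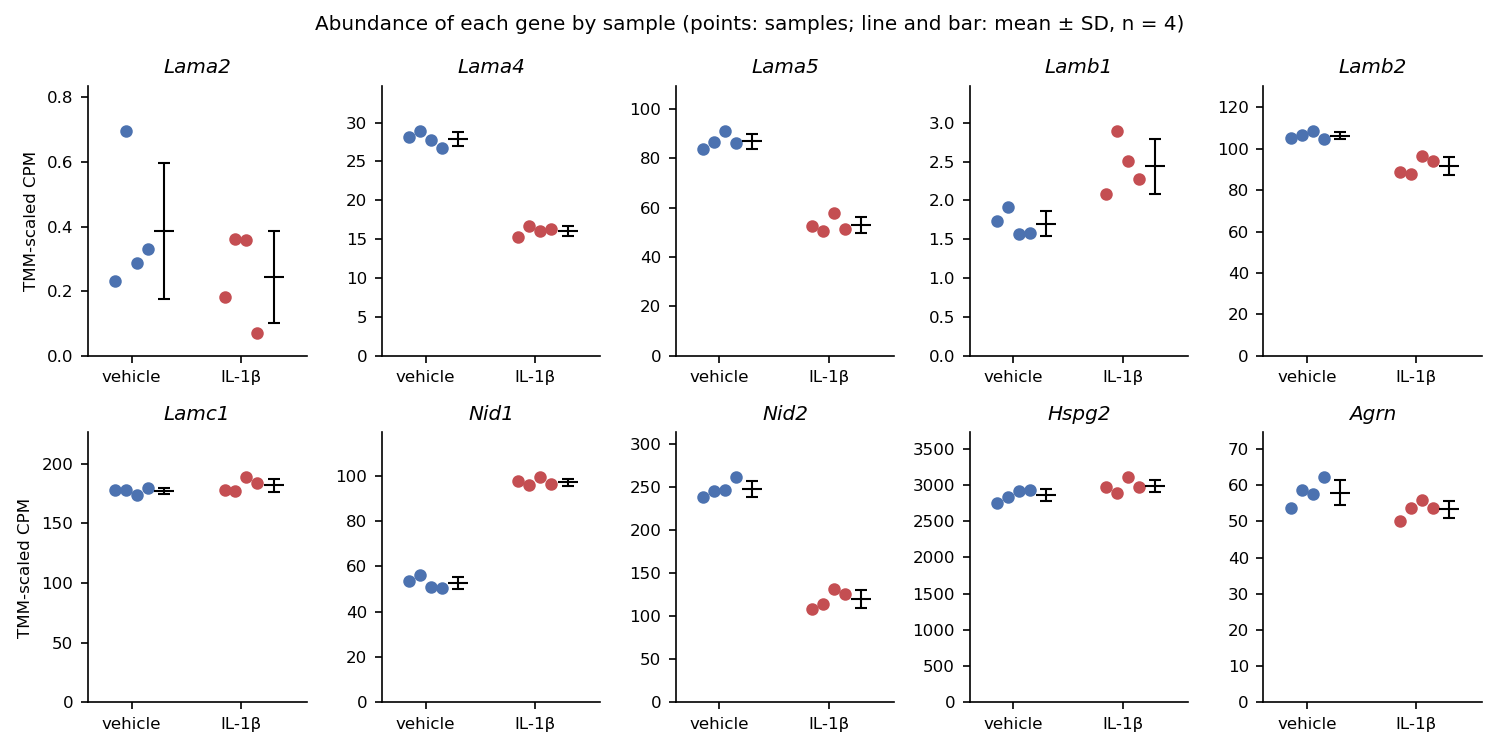
TMM-scaled CPM (vertical axis, starting at 0) of each of the 10 genes in the 4 vehicle samples (blue) and the 4 IL-1β samples (red), with the mean ± SD beside the points. The groups are apart for *Lama4*, *Lama5*, *Lamb1*, *Lamb2*, *Nid1* and *Nid2*, and overlap for *Lama2*, *Lamc1*, *Hspg2* and *Agrn*.

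In position, the genes lie on 8 mouse chromosomes of GRCm38 (the assembly also called mm10), here as annotated in GENCODE vM21, and all are protein-coding. *Hspg2* (137468769 to 137570630, 97 blocks of exons) and *Agrn* (156165290 to 156197488) are both on chromosome 4, and *Lama2* (26980036 to 27619758) and *Lama4* (38965515 to 39110188) both on chromosome 10. *Lama5* is on chromosome 2 from 180176373 to 180225859, *Lamb1* on chromosome 12 from 31265234 to 31329644, *Lamb2* on chromosome 9 from 108479736 to 108490530 and *Lamc1* on chromosome 1 from 153218922 to 153332786. *Nid1* lies on chromosome 13 from 13437551 to 13512269 and *Nid2* on chromosome 14 from 19751265 to 19811787. For all 10, the length listed beside the counts equalled the summed exon bases in GENCODE vM21. *Nid2* shares 8.45% of its exon bases with *Rtraf*, which had 97.6 ± 1.48 CPM with vehicle and 95.2 ± 1.61 CPM after IL-1β (SD, n = 4). The overlaps of *Lama2* (3.86%) and *Nid1* (2.06%) are with genes at 0 counts in every sample, and the other 7 genes share no exon bases.

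Promoter windows in RefSeq's table (GRCm38.p6), from 250 bases before to 50 after an annotated start, were found for 7 of the 10 genes, with a further window for *Agrn*. The 3 shown belong to the nidogen that rose, to the most abundant laminin α chain, which fell, and to *Hspg2*, which was not called. Each is 150 bases long, ends just before the gene's first annotated base, and has GC boxes (GGGCGG, on either strand) in capitals. *Nid1* is read from the plus strand at chr13:13437401-13437550, *Lama5* from the minus strand at chr2:180225860-180226009 and *Hspg2* from the plus strand at chr4:137468619-137468768.

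Nid1: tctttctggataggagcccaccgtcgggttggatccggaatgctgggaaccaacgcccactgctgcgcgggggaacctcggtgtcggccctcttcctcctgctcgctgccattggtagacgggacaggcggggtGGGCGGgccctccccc

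Lama5: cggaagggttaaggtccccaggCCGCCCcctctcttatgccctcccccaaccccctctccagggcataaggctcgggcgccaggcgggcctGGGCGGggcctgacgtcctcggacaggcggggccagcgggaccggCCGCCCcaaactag

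Hspg2: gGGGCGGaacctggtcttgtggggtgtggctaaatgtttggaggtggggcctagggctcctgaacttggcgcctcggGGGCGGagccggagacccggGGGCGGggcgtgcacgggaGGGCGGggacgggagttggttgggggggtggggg

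The full windows held 1 GC box for *Nid1*, 4 for *Lama5* and 5 for *Hspg2*, and 35.7% of all 32851 promoter windows of this length held at least 1. The more upstream *Agrn* window held 12 at a GC content of 83.3%, and that of *Lamb2* held none at 44.0%, while the median over all windows was 52.7%. Neither the κB consensus (4.51% of all windows, both strands searched) nor the AP-1 motif TGANTCA (7.81%) was found in any window of these genes. The study's miRNA, miR-146a-5p, was looked for through its seed, bases 2 to 8, in capitals here as RefSeq gives it:

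miR-146a-5p: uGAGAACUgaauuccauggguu

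The matching AGTTCTC was present in none of the 10 genes' 3′ UTRs, taken from the longest coding transcript of each, and in 12.5% of the 11937 tested genes with a 3′ UTR. The study's own target prediction used conserved sites and also took shorter seed matches, which were not searched for here. These UTRs were 110 (*Lamb2*) to 2551 (*Lamc1*) bases long, and 6 of them, those of *Lama2*, *Lama4*, *Lama5*, *Lamb1*, *Lamb2* and *Nid2*, were at most 591 bases, against a median of 1192 bases over the tested genes.

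Of the 3 laminin α chains among the genes, *Lama5* and *Lama4* both fell and *Lama2* was close to the limit of what could be shown. *Lama5*, which encodes the α chain of most adult epithelial and vascular basement membranes, had 83.7, 86.4, 91.0 and 86.2 CPM in vehicle replicates 1 to 4 and 52.5, 50.6, 57.7 and 51.2 CPM in IL-1β replicates 1 to 4. Every IL-1β sample was below every vehicle sample, with the highest treated sample well under the lowest control. The mean decreased from 86.8 ± 3.04 to 53.0 ± 3.22 CPM (SD, n = 4), and the log2 fold change came to -0.71 (SE 0.044, its standard error, with adjusted p = 7.82e-14 from edgeR). *Lama4*, the α chain of endothelial and mesenchymal laminins, had 28.1, 28.9, 27.8 and 26.8 CPM with vehicle and 15.3, 16.7, 16.0 and 16.4 CPM after IL-1β, again without overlap. Its log2 fold change was -0.79 (SE 0.0609, adjusted p = 9e-12 from edgeR), so *Lama4* fell by 42.2%, and *Lama5* fell by 38.8%. *Lama2*, the α chain of muscle and Schwann cell laminin, had 4, 12, 4 and 5 reads with vehicle and 2, 5, 6 and 1 reads with IL-1β, and the groups overlapped. Without the filter on low counts its log2 fold change was -0.63, with a 95% interval of -1.69 to 0.42 (adjusted p = 0.54 from edgeR), so a change of *Lama2* was not detectable at this depth.

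In relative terms the 2 main α chains moved together. The ratio of *Lama5* to *Lama4* per listed length was 2 to the power of 1.72 ± 0.0725 with vehicle and 1.80 ± 0.116 with IL-1β (SD, n = 4), and the groups overlapped (difference 0.08 on the log2 scale, exact permutation test, two-sided, p = 0.314, adjusted p = 0.393 over the 5 ratios compared). Among all 5 α chain genes, *Lama5* held 75.5 ± 0.961% of the abundance per length with vehicle and 74.3 ± 1.03% with IL-1β, and *Lama4* held 22.9 ± 0.878% and 21.4 ± 1.47%. The listed length of *Lama4*, 12068 bases, is the sum over all its annotated exons, whereas its longest coding transcript has 6046 bases. With transcript lengths in place of the listed lengths, an alternative chosen after seeing the data, *Lama5* exceeded *Lama4* 1.65-fold with vehicle and 1.75-fold with IL-1β in place of 3.30-fold and 3.49-fold, and *Lama4* held 37.1 ± 1.15% with vehicle and 35.1 ± 2.00% with IL-1β. The other α chain genes were minor, with *Lama1*, an embryonic laminin chain, at 1.19 ± 0.508 CPM with vehicle and 2.17 ± 0.485 CPM after IL-1β, a log2 fold change of 0.84 (adjusted p = 0.0096 from edgeR) on 12 to 37 reads per sample and with overlapping groups. *Lama3*, the α chain of epidermal laminin, had 2 to 9 reads per sample and was not tested.

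**Figure D2:**
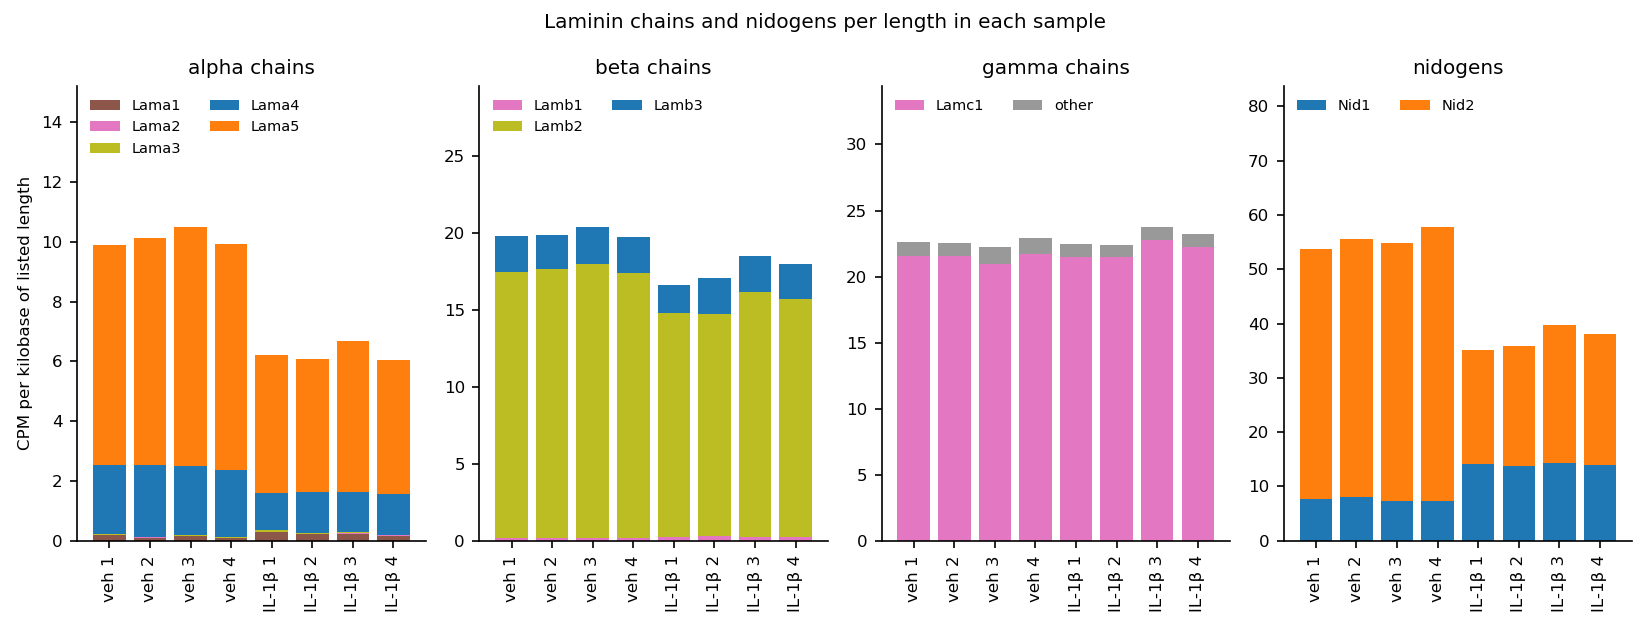
CPM per kilobase of listed length (vertical axis, starting at 0, a separate scale for each panel) of the laminin α, β and γ chain genes and of the nidogens, stacked by gene, in each of the 8 samples. The bars of the α chains, the nidogens and, to a smaller extent, the β chains are shorter in all 4 IL-1β samples. Those of the γ chains are of similar height in both groups, and the part of *Nid1* is larger after IL-1β.

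Between the laminin β chains, *Lamb2* made up most of the transcripts and *Lamb1* very few. *Lamb2*, whose product belongs to laminins of the neuromuscular junction and the glomerulus, had 105, 106, 109 and 105 CPM with vehicle and 88.6, 87.8, 96.5 and 94.0 CPM after IL-1β. The groups did not overlap, although the highest IL-1β sample came close to the lowest vehicle sample. The log2 fold change was -0.21 (SE 0.0363, adjusted p = 2.62e-05 from edgeR), so *Lamb2* fell by 13.5%. *Lamb1*, the β chain of the classical laminins, rested on 30, 33, 22 and 24 reads with vehicle and 23, 40, 42 and 32 reads with IL-1β, from libraries that were smaller on the whole in the treated group. Scaled for depth, these are 1.74, 1.91, 1.57 and 1.58 CPM with vehicle and 2.08, 2.89, 2.503 and 2.28 CPM after IL-1β, with every treated sample above every control. The log2 fold change of *Lamb1* was 0.52 (SE 0.191, 95% interval 0.13 to 0.91, adjusted p = 0.0311 from edgeR). The call on *Lamb1* was lost in 7 of 15 alternatives, among them DESeq2 (adjusted p = 0.097) and the fits without IL-1β replicate 2 or 3 or vehicle replicate 1, 3 or 4 (adjusted p from 0.0541 to 0.102), while its log2 fold change stayed between 0.43 and 0.58.

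Per listed length, *Lamb2* exceeded *Lamb1* 102-fold with vehicle and 61.8-fold with IL-1β (geometric means). With the length of the longest coding transcript, which for *Lamb1* is 5784 in place of 9917 bases, the folds were 64.4 and 38.9. The log2 ratio of *Lamb1* to *Lamb2* was -6.67 ± 0.139 with vehicle and -5.95 ± 0.221 with IL-1β (SD, n = 4), a difference of 0.73 without overlap of the groups (two-sided exact permutation test, p = 0.0286, adjusted p = 0.0476 over 5 ratios). No smaller p than this can be had from 2 groups of 4. *Lamb1* held 1.40 ± 0.209% of the β chain abundance per listed length after IL-1β and 0.861 ± 0.0862% with vehicle, or 2.14 ± 0.312% and 1.32 ± 0.133% with transcript lengths. The remaining share was that of *Lamb3*, a β chain of epidermal laminin, with 11.5 ± 0.377% with vehicle and 12.5 ± 1.12% with IL-1β. At 15.1 ± 0.563 and 14.5 ± 1.69 CPM, *Lamb3* was not called (log2 fold change -0.05, adjusted p = 0.714 from edgeR).

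*Lamc1*, which encodes the γ chain shared by the laminins of most tissues, was steady. Its abundance was 178, 178, 174 and 179 CPM in the vehicle samples and 178, 178, 189 and 184 CPM in the IL-1β samples. The log2 fold change was 0.04 with a 95% interval of -0.02 to 0.10 (adjusted p = 0.339 from edgeR), and this interval leaves no room for a change as large as that of *Lamb2*. The 3 genes closest to *Lamc1* in their pattern over the 8 samples were *Akr1a1*, *Fkbp4* and *Ubap2*, at a root mean square distance of 0.0126 to 0.0163 between the centred log2 CPM, among 14389 genes. *Lamc1* held 95.01 ± 0.541% of the γ chain abundance per length with vehicle and 95.8 ± 0.168% with IL-1β. *Lamc3*, another γ chain, had 1 to 11 reads per sample and was not tested.

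As totals per length, the α chains decreased from 10.1 ± 0.275 to 6.26 ± 0.298 CPM per kilobase (SD, n = 4), a ratio of 0.619. The β chains had 19.9 ± 0.297 CPM per kilobase with vehicle and 17.5 ± 0.86 CPM per kilobase with IL-1β, a ratio of 0.879. Neither the α nor the β chain totals overlapped between the groups. For the γ chains the values were 22.6 ± 0.281 and 23.0 ± 0.635 CPM per kilobase, a ratio of 1.02 with overlapping groups. The α chain total was thus below the β and γ totals in both groups, with either choice of length.

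The nidogens changed in opposite directions, and by the largest amounts among these genes. *Nid2* had 238, 246, 246 and 261 CPM in vehicle replicates 1 to 4 and 109, 114, 131 and 125 CPM in the IL-1β replicates. The lowest vehicle sample was far above the highest treated sample. The log2 fold change of *Nid2* was -1.04 (SE 0.0426, adjusted p = 4.52e-18 from edgeR), or 0.486 of the vehicle level. With each sample left out in turn it lay between -1.09 and -1.0004, so *Nid2* was past the fold threshold of a DEG in each case. *Nid1*, the nidogen of nearly all basement membranes, had 53.5, 56.1, 50.9 and 50.6 CPM with vehicle and 97.5, 95.7, 99.2 and 96.2 CPM after IL-1β. All 4 treated samples lay close together and well above the controls. Its log2 fold change was 0.88 (SE 0.0403, adjusted p = 6.91e-17 from edgeR), a 1.84-fold increase that was under the threshold for a DEG.

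Per length, *Nid2* exceeded *Nid1* 6.30-fold with vehicle and 1.65-fold with IL-1β. The log2 ratio of *Nid2* to *Nid1* was 2.58, 2.56, 2.70 and 2.79 in the vehicle samples and 0.58, 0.68, 0.83 and 0.81 in the IL-1β samples, a difference of -1.93 (exact permutation test, two-sided, p = 0.0286, adjusted p = 0.0476 over 5 ratios). *Nid1* accordingly made up 13.7 ± 0.903% of nidogen transcripts per length in vehicle-treated cells and 37.7 ± 1.89% after IL-1β. The rise of *Nid1* was smaller than the fall of *Nid2* in absolute terms, and both nidogens together went from 55.5 ± 1.69 to 37.2 ± 2.11 CPM per kilobase, a ratio of 0.67 without overlap of the groups.

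**Figure D3:**
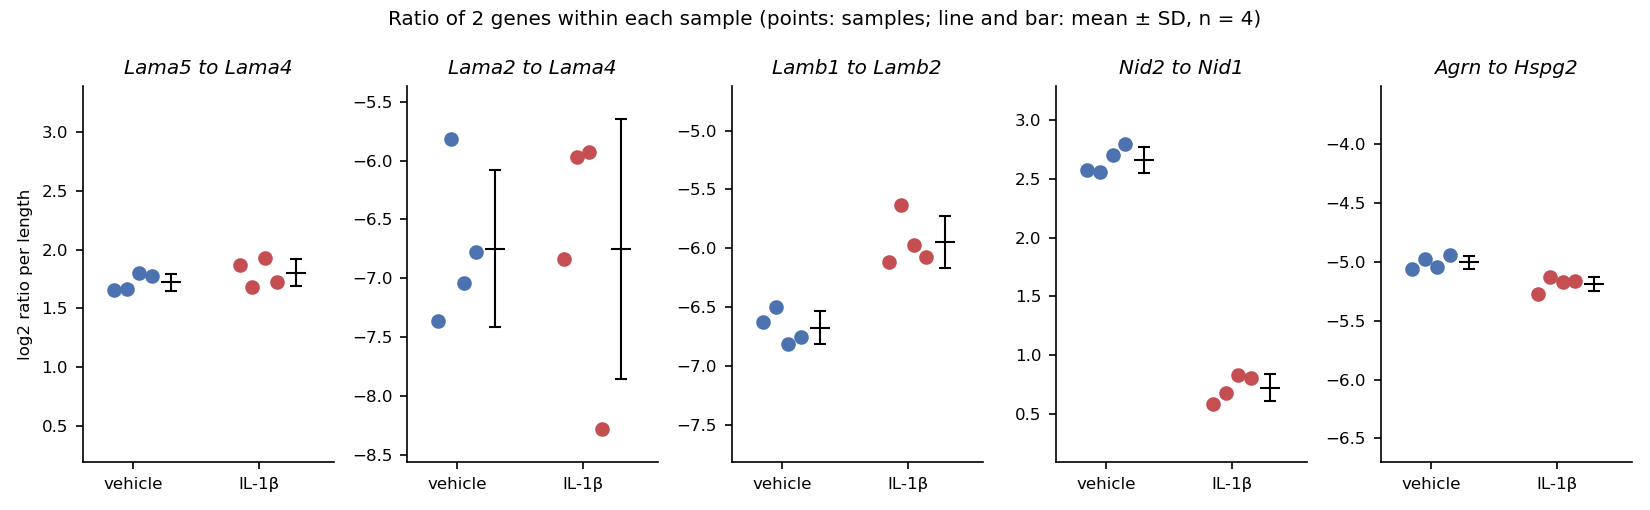
Log2 ratio of the counts per listed length of 2 genes (vertical axis, the same span of log2 units in each panel) in each vehicle sample (blue) and IL-1β sample (red), with the mean ± SD. The largest shift is that of *Nid2* to *Nid1*, from 2.66 ± 0.111 to 0.72 ± 0.116, and the groups overlap for *Lama5* to *Lama4* and for *Lama2* to *Lama4*.

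Perlecan was by far the most abundant of the 10 genes, and its level hardly moved. *Hspg2* had 2749, 2830.5, 2912 and 2935 CPM with vehicle and 2974, 2892, 3102 and 2969.8 CPM after IL-1β, and the groups overlapped. Per length it stood 158th among the 14404 genes in either group, with 199.7 ± 5.89 CPM per kilobase with vehicle and 208.6 ± 6.08 CPM per kilobase with IL-1β (SD, n = 4). The log2 fold change of *Hspg2* was 0.06 (SE 0.0267, 95% interval 0.01 to 0.12, adjusted p = 0.0606 from edgeR). It was called in 3 of 15 alternatives, namely with the total library size (adjusted p = 0.0458), with a factor of unwanted variation (adjusted p = 0.0223) and without IL-1β replicate 2 (adjusted p = 0.0283), at a log2 fold change of at most 0.08. Closest to it in pattern were *Kdm3b*, *Oaz2* and *Derl1*, at distances of 0.0191 to 0.0231.

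Agrin, which clusters acetylcholine receptors at the neuromuscular junction and is also made by chondrocytes, had 53.6, 58.6, 57.5 and 62.1 CPM with vehicle and 50.1, 53.6, 55.8 and 53.7 CPM after IL-1β. These groups overlapped. The log2 fold change of *Agrn* was -0.11 (SE 0.0463, adjusted p = 0.0494 from edgeR), and the call was lost in 10 of 15 alternatives, among them DESeq2 (adjusted p = 0.107). It was also lost without IL-1β replicate 1, 2 or 4 or vehicle replicate 2, 3 or 4 (adjusted p from 0.0674 to 0.203). Set against *Hspg2* in the same sample, *Agrn* had a log2 ratio per length of -5.00 ± 0.0563 with vehicle and -5.18 ± 0.0592 with IL-1β (SD, n = 4), so perlecan transcripts exceeded those of agrin 32.0-fold and 36.4-fold. This difference of -0.18 had no overlap between the groups (exact permutation test, two-sided, p = 0.0286, adjusted p = 0.0476 over 5 ratios).

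Per listed length, the order with vehicle was *Hspg2*, *Nid2* (47.9 ± 1.87 CPM per kilobase), *Lamc1* (21.4 ± 0.306), *Lamb2* (17.5 ± 0.268), *Lama5* (7.63 ± 0.267), *Nid1* (7.60 ± 0.373), *Agrn* (6.24 ± 0.378), *Lama4* (2.31 ± 0.0741), *Lamb1* (0.172 ± 0.0161) and *Lama2* (0.0236 ± 0.0129). *Lama5* and *Nid1* did not differ beyond their spread in this order, and the places of *Lama5*, *Nid1* and *Agrn* depended on the length. With transcript lengths, *Nid1* (8.66 ± 0.426 CPM per kilobase) and *Agrn* (7.98 ± 0.483) came before *Lama5* (7.63 ± 0.267), with neighbours within their spread, and *Lama4* (4.61 ± 0.148) kept its place after them. After IL-1β, *Nid2* (23.2 ± 2.00 CPM per kilobase) came within the spread of *Lamc1* (22.0 ± 0.644) per listed length. *Nid1* (14.0 ± 0.221) then stood above *Agrn* (5.74 ± 0.254) and *Lama5* (4.65 ± 0.283) and under *Lamb2* (15.1 ± 0.692), and with transcript lengths *Nid1* (15.9 ± 0.252) and *Lamb2* (16.3 ± 0.748) were within their spread. In 2 of the 9 tested genes all IL-1β samples were above all vehicle samples and in 4 they were below, whereas this held for 18.7% and 18.2% of all genes tested.

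**Figure D4:**
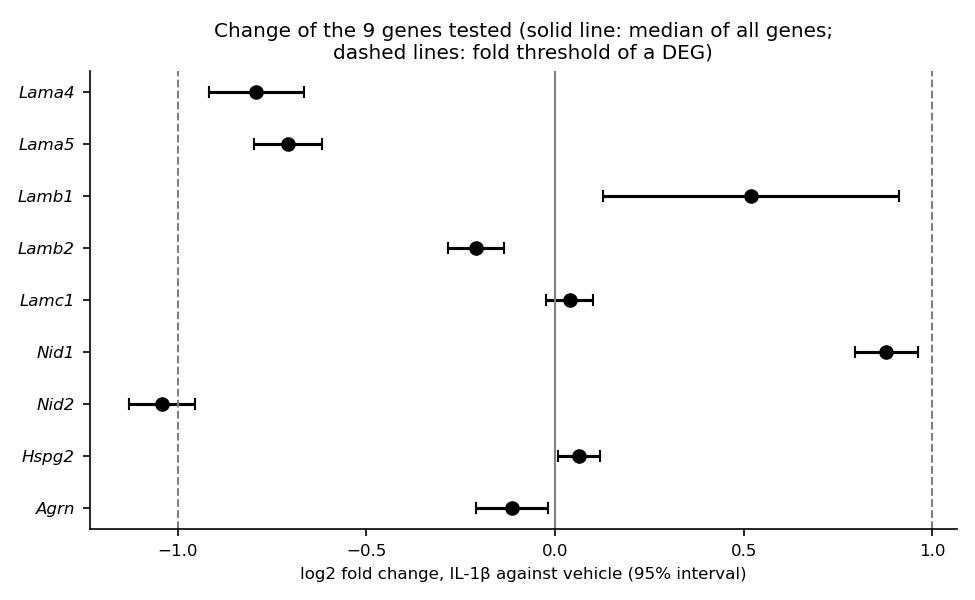
Log2 fold change of IL-1β against vehicle (horizontal axis) with its 95% interval for the 9 genes tested. The solid line is the median of all genes and the dashed lines mark the fold threshold of a DEG. Only the estimate of *Nid2* passes it, at -1.04, with an interval that crosses the line, and *Nid1* is at 0.88 on the opposite side.

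Among the receptors of these molecules, no gene was called higher. Of all genes tested, edgeR called 19.8% lower and 20.4% higher. Of 9 genes for laminin and agrin receptors, 8 were tested, of which 6 were called lower and 0 higher, by edgeR as by DESeq2. At an unadjusted p under 0.05, 0 of these receptors were higher. Their median log2 fold change was -0.69, in which each gene counts alike whatever its abundance. Summed over the 9 genes, the abundance was 1013 to 1036 CPM with vehicle and 883 to 909 CPM after IL-1β. The most abundant receptor gene, *Itgb1*, named after its values were seen, was among those called lower. It went from 490.5 ± 6.34 to 462.6 ± 16.5 CPM (log2 fold change -0.08, adjusted p = 0.032 from edgeR). The largest falls were those of *Bcam*, a laminin receptor that binds the α chain of *Lama5*, from 8.12 ± 0.851 to 2.85 ± 0.962 CPM (log2 fold change -1.48, adjusted p = 6.04e-09), and of the laminin-binding integrin chains *Itga7* (-1.19) and *Itga6* (-1.09). Among the receptors, *Itga3* (-0.01, adjusted p = 0.875) and *Dag1* (0.05, adjusted p = 0.271), both named after their values were seen, were not called. *Dag1* encodes dystroglycan, which binds laminin, perlecan and agrin through a sugar chain named matriglycan. Of 11 enzymes that build this chain, all tested, 3 were called higher and 3 lower, against 20.4% and 19.8% of all genes tested. The median of these enzymes was -0.004. The higher ones were *Pomgnt2* (log2 fold change 0.67, from 3.35 ± 0.876 to 5.46 ± 1.15 CPM), *Pomk* (0.36) and *B4gat1* (0.25), and the lower ones included *Pomgnt1* (-0.21) and *B3galnt2* (-0.17).

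Among the enzymes that make heparan sulfate, the sugar carried by perlecan and agrin, 14 of 21 genes were tested. Of these, edgeR called 9 lower and 0 higher, against 19.8% and 20.4% of all genes tested. DESeq2 called 8 lower and 0 higher, and 0 were higher at an unadjusted p under 0.05. The median log2 fold change was -0.13. The falls were largest for genes of glucosaminyl 3-O-sulfation, namely *Hs3st1* (from 4.45 ± 0.822 to 2.505 ± 0.345 CPM, log2 fold change -0.80, adjusted p = 0.000262 from edgeR), *Hs3st3a1* (-0.66, adjusted p = 0.0394) and *Hs3st3b1* (-0.53, adjusted p = 1.62e-05). *Hs3st3a1* rested on 23 to 35 reads per sample with vehicle and 8 to 23 with IL-1β, and its groups overlapped. Of the genes that trim finished chains, *Sulf1*, an extracellular sulfatase, rose from 207.7 ± 3.75 to 237.6 ± 4.01 CPM (log2 fold change 0.19, adjusted p = 5.47e-06 from edgeR). *Sulf2* was not called (log2 fold change -0.04, adjusted p = 0.395), and the heparanase gene *Hpse*, with 0.851 ± 0.269 CPM with vehicle and 0.875 ± 0.272 CPM after IL-1β, was not tested. Both were named after their values were seen. Of proteases known to cut agrin or perlecan, the list held neurotrypsin and the tolloid family but no matrix metalloproteinase, and the latter were not analysed here. None of its 3 tested genes was called by edgeR or DESeq2, and 0 had an unadjusted p under 0.05 (median log2 fold change -0.14). By edgeR, 19.8% of all genes tested were called lower and 20.4% higher. A list of 3 genes is too short to be told apart from these shares.

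Among 23 other basement membrane genes, 18 were tested, with a median log2 fold change of -0.35. Of these 18, 10 were called lower and 5 higher, against 19.8% and 20.4% of all genes tested. In this list 4 were DEGs, all lower, against 2.35% of all genes tested that were DEGs in that direction. *Smoc2*, a matricellular protein of the SPARC family, fell most, from 122 ± 2.75 to 13.6 ± 0.489 CPM (log2 fold change -3.17, adjusted p = 1.19e-28 from edgeR), followed by *Col15a1* (-1.29) and *Col4a6* (-1.21). The largest rise was that of *Ntn1*, a netrin with a laminin-like N-terminal domain, from 17.2 ± 1.11 to 33.0 ± 1.66 CPM (log2 fold change 0.94, adjusted p = 2.72e-13 from edgeR). *Smoc1* rose by a log2 fold change of 0.50 and *Col4a1*, a chain of the collagen IV to which nidogens bind, by 0.33 (19.5 ± 0.903 to 24.4 ± 1.47 CPM).

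**Figure D5:**
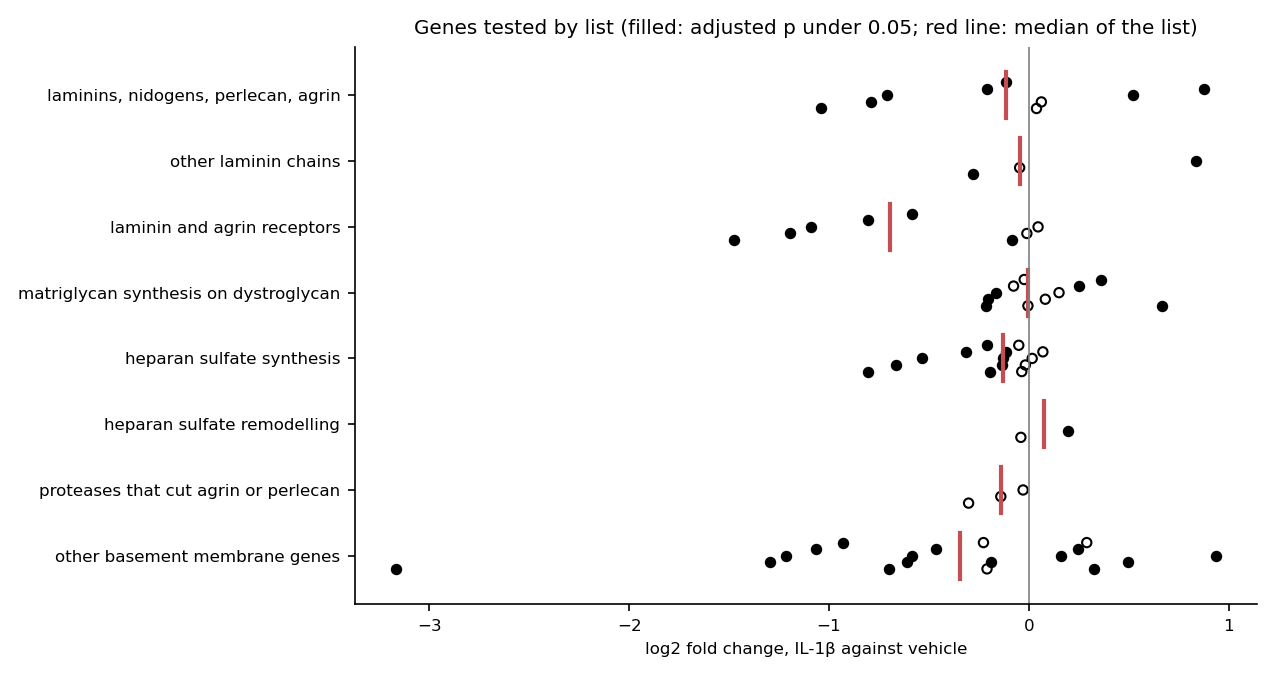
Log2 fold change of IL-1β against vehicle (horizontal axis) of each tested gene, by list, with filled points for an adjusted p under 0.05 from edgeR and a red line at the median of each list. All filled points of the receptors and of heparan sulfate synthesis lie below 0, while those of the laminins, nidogens, perlecan and agrin lie on both sides.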

How the data were processed

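RNA-Seq counts of 8 samples were used. Per the study's methods, the authors used cutadapt for trimming, STAR for alignment to the mouse genome (mm10) and featureCounts for quantification. The counts were deposited as whole numbers per gene symbol. The methods also name RUVseq, and whether the deposited counts precede that correction is not stated. The gene lengths the authors deposited in bases (unit: other) served for values per kilobase. Strand use in counting is not given in the sources used here.

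Samples were grouped by treatment. After the filter on low counts (over 1 CPM in 4 or more samples), 14404 genes were normalized by TMM and tested with edgeR 4.0.16 (quasi-likelihood, R 4.3.3), with p-values adjusted over all of them (Benjamini-Hochberg). Intervals are 95% intervals of the log2 fold change. Of 200 genes changed in simulated counts, edgeR recovered 100%, and where nothing changed it made 0 calls. The genes changed there were not of low counts, and their log2 fold changes were 1 or more in size. All genes had the same simulated dispersion. The simulation therefore does not cover smaller changes, as of *Agrn* and *Lamb2*, or low counts, as of *Lamb1*. Ratios were compared by exact permutation (scipy 1.17.1), and p-values adjusted over 5 ratios. Limits of 3 counts cover counting error only. DESeq2 1.42.0, other scalings and filters, a replicate block, a factor of unwanted variation and each sample left out were the alternatives.

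The members, gene lists, ratios and markers were chosen with earlier results of these data known. All 10 members are named. Of other lists, the 3 largest rises and falls among called genes are named, and the 3 genes nearest in pattern to *Lamc1* and *Hspg2*. The lists were other laminin chains, receptors, matriglycan and heparan sulfate enzymes, proteases and other basement membrane genes. The shares of all genes tested set beside their counts are from edgeR at the adjusted p. No such share is given for DESeq2 or for an unadjusted p. Some genes that this rule would name are not reported here.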

Additional observations from a re-analysis of the deposited data

Results flagged for a closer look

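Dixon's ratio was computed in 32 groups of 4 values, namely the CPM of the 10 genes, the total counts and the 5 log2 ratios, each with IL-1β and with vehicle. In 0 of them did it exceed its 95% critical value for 4 samples. About 1 in 20 such groups, or 1.6 here, would do so by chance.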

How the results depend on the processing

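Over 15 alternatives, 5 to 8 of the genes were called changed, against 7 in the test as reported, and *Lama4*, *Lama5*, *Lamb2*, *Nid1* and *Nid2* were called under each of them. No log2 fold change reversed in 135 refits of single genes. *Nid2* was the only DEG in each, and with a fold threshold of 1.5, *Lama4*, *Lama5* and *Nid1* joined it, which made 4. When single samples were left out, the number of DEGs was 1 and the number called was 5 to 6. The differences in log2 ratio then lay between 0.62 and 0.78 for *Lamb1* to *Lamb2*, -1.97 and -1.88 for *Nid2* to *Nid1*, -0.20 and -0.15 for *Agrn* to *Hspg2*, 0.037 and 0.12 for *Lama5* to *Lama4*, and -0.28 and 0.51 for *Lama2* to *Lama4*. The sign of the last thus changed, without IL-1β replicate 1 (0.024) or 4 (0.51) or vehicle replicate 2 (0.31). With 3 samples against 4 no permutation p can pass the threshold, so the calls of ratios cannot be tested there, and the adjusted p of the first 3 ratios was 0.0952 in each case.

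Same-numbered samples did not deviate together (r of deviations from the group means across genes, -0.0699 to 0.0415 in 4 pairs), and not every sample correlated best with its own number, so the numbers were not taken as pairs. A block for the replicate number gave 7 called genes and 1 DEG. The paired differences of the ratios were 0.73 (*Lamb1* to *Lamb2*), -1.93 (*Nid2* to *Nid1*) and -0.18 (*Agrn* to *Hspg2*), each with an adjusted p of 0.208, and 4 pairs cannot pass the threshold either. Precision at low abundance limits *Lama2* and *Lamb1*, with at most 12 and 42 reads per sample. Levels, shares and ratios per length depend on the length used, and the differences in ratio between the groups do not.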
